A study of Rattus norvegicus with 6 samples.

Results

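The genes described here are the heat shock proteins and J proteins of the rat, taken by name from an array study of the hippocampus of orchidectomized and sham-operated males. Every array probe whose gene symbol began with Hsp or Dnaj was taken, except Hspg2, which encodes a matrix proteoglycan. This gave 81 probes for 65 genes, of 30367 probes and 15154 named genes on the array, and each gene was represented by its brightest probe. The array files held no column of gene symbols, so symbols came from the RefSeq accession of each probe. The list was chosen by symbol and not by any measured value. Hspa1a, Hspa1b, Hspa12b, Dnajb1 and Dnajc6 had no probe with a matched symbol and were not analysed here.

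Male Wistar rats aged 2 months had either both testes removed (orchidectomy) or a sham operation. The hippocampus was taken 2 weeks later, in both groups under ketamine and medetomidine. Total RNA, 200 ng per sample, was extracted with TRIzol and labelled with Cy3 using the Low Input Quick Amp kit. Each of the 3 orchidectomized and 3 sham samples, which the labels call biological replicates, was hybridised to its own 1-colour Agilent array. The sample is the whole dissected region, so each value is a mean over neurons, glia, vessels and any attached tissue. In such bulk RNA, fewer cells of a type and less RNA per cell cannot be told apart.

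Heat shock proteins are molecular chaperones, which bind unfolded or partly folded proteins and keep them from aggregating. HSP70 proteins hold client proteins in cycles driven by ATP, J proteins (the Dnaj genes) bring clients to HSP70 and start its ATP hydrolysis, and HSP90 acts later on clients such as steroid hormone receptors, the androgen receptor among them. Small heat shock proteins bind unfolding clients without ATP, and the endoplasmic reticulum and mitochondria have HSP70 and J proteins of their own. In neurons, J proteins and the HSP70 family member Hspa8 also strip the clathrin coat from endocytic vesicles and keep the proteins of vesicle release folded.

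The values are log2 spot intensities relative to the 75th percentile of their array, so 0 is that percentile and 1 unit is a 2-fold step in brightness. Differences are orchidectomized minus sham, and levels are compared only between arrays for the same probe. The scanner software marked 23785 to 26173 of the 30367 probes of an array as well above background. Precision is limited by the number of arrays. The array labelled sham 2 stood apart. Over all probes it correlated with the other arrays at 0.803 to 0.813, against 0.987 to 0.996 among the other 5. Choroid plexus markers (14 of 15 measured) had a summed linear level of 342 on it, against 22.2 to 40.5 on the orchidectomized arrays, 14.8 on sham 1 and 10.1 on sham 3. On the other 5 arrays the brightest of them was Ttr, at 2.99 to 5.20. It was saturated on 2 arrays and read 5.16 on sham 2, inside that range. The mean log2 value of the 14 was 4.36 on sham 2, -4.53 to -3.42 on the orchidectomized arrays, -4.08 on sham 1 and -5.01 on sham 3. The 12 markers of glutamatergic neurons, the main cells of the hippocampus, summed to 0.27 on sham 2 against 36.2 to 55.2 on the other 5, where all 12 were well above background. The label therefore fitted 5 of the 6 arrays by these markers. Tests and counts over all chaperone genes are given with and without sham 2. Differences of single genes and of gene lists leave sham 2 out unless stated. Orchidectomized 3 had the lowest 75th percentile of intensity (10.13 in log2, against 10.79 to 11.33) and 672 flagged spots against 235 to 313.

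Without sham 2, no chaperone gene passed the test between 3 orchidectomized and 2 sham arrays. Of the 65 genes, 63 were tested, which required every array of one group or the other to be well above background. Dnajb7 and Dnajc5g, known mainly from the germ line, were not well above background on any of the 6 arrays. Limma called 0 of the 63 genes at a Benjamini-Hochberg adjusted p under 0.05, beside 0.0% of the 25212 probes tested. At an unadjusted p under 0.05 it gave 1 gene, Hspa5, beside 2.71% of all probes. The differences were small. Their median was -0.03 over the chaperone genes and -0.02 over all probes, and 52 of the 63 genes differed by less than 0.2 log2 units in either direction. The median size of the difference, without its sign, was 0.09 for the chaperone genes and 0.13 for all probes. These are unlike sets, since each chaperone gene stands by its brightest probe and all probes include second and unnamed ones.

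Of the 63 genes, 26 were higher and 37 lower in the orchidectomized group, and 44.9% of all probes were higher. The 26 include Hspa8, whose brightest probe was saturated on all 6 arrays. This split depended on the scaling. It became 39 higher and 24 lower with normexp background correction, which moved the median of all probes to 0.08, and 38 higher and 25 lower with the authors' deposited values, which moved it to 0.03. Quantile normalization gave 30 higher and 33 lower, and median scaling left the split as it was. The groups did not overlap for 7 of the 63 genes, beside 16.3% of all probes. Hspa5, Hspa4, Hsp90aa1 and Dnajc3 were higher in all 3 orchidectomized arrays, and Dnajc12, Dnajc14 and Dnajc5 were lower.

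**Figure D1:**
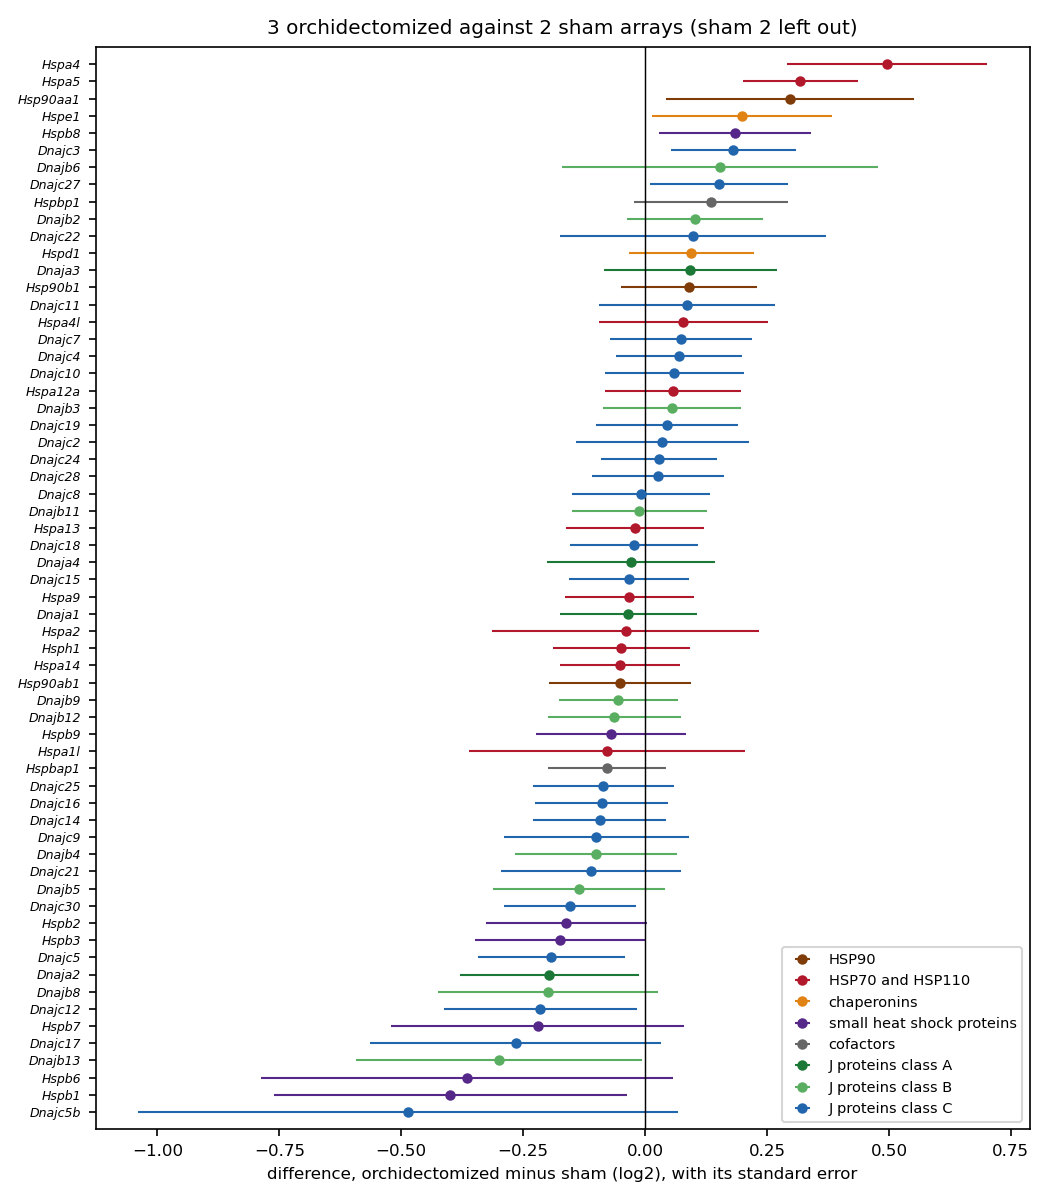
Difference between 3 orchidectomized arrays and sham 1 and 3 for 62 tested chaperone genes (the saturated Hspa8 is left out), in log2 units on the horizontal axis. Points are limma estimates, bars their standard errors and colours the protein families. Hspa4 at 0.50, Hspa5 at 0.32 and Hsp90aa1 at 0.30 lie at the top, Hspb6 at -0.37, Hspb1 at -0.40 and Dnajc5b at -0.49 at the bottom, and most bars cross 0. Dnajc5b was well above background on 1 of the 3 orchidectomized arrays and was tested only through the sham arrays, where its mean was higher.

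The HSP90 family was measured by 3 genes, of which none passed the test. Hsp90aa1 encodes the stress-inducible cytosolic HSP90. Its values were 4.40, 4.43 and 5.13 on orchidectomized 1, 2 and 3, 4.32 on sham 1, 4.39 on sham 3 and 4.73 on sham 2. Without sham 2 the groups did not overlap, but orchidectomized 1 and 2 lay close above the sham arrays and orchidectomized 3 stood alone. The difference was 0.30 with a standard error of 0.25, and 0.06 without orchidectomized 3. The other 2 probes of the gene gave 0.35 and -0.02, so its probes disagreed. Hsp90ab1, the constitutive cytosolic form, read 4.25, 4.08 and 3.96 in the orchidectomized group, 4.20 and 4.09 on sham 1 and 3, and 4.02 on sham 2. All 6 arrays overlapped, and the difference was -0.05 with a standard error of 0.15, against 0.20 for the other probe. Hsp90b1 encodes the HSP90 of the endoplasmic reticulum, known as GRP94. It read 1.78, 1.80 and 1.56 in the orchidectomized group and 1.61 and 1.64 on sham 1 and 3, with a difference of 0.09. Sham 2, at 3.12, was the only array outside that range.

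Hspa5 encodes BiP, the HSP70 of the endoplasmic reticulum, which binds nascent secreted and membrane proteins and holds the stress sensors of that compartment inactive. It was the 1 chaperone gene with an unadjusted p under 0.05. Its values were 3.48, 3.51 and 3.49 on orchidectomized 1, 2 and 3, 3.15 on sham 1 and 3.20 on sham 3, and 5.04 on sham 2. The 3 orchidectomized arrays lay close together and all above sham 1 and 3, while sham 2 was above all 5. The mean was 3.49 ± 0.02 (SD, n = 3) against 3.18 ± 0.03 (SD, n = 2). The difference of 0.32 had a standard error of 0.12, with a limma p of 0.0382 and a Benjamini-Hochberg adjusted p of 0.988. It ran from 0.28 to 0.37 under every alternative setting tried without sham 2. It was 0.34 on slide 2, the only slide that held both groups, and 0.34 among the arrays of the first scan day. With sham 2 in the fit the difference was -0.30, with a standard error of 0.55. Marker lists of several cell types also differed between the groups without sham 2. Of 13 choroid plexus markers tested, 11 were higher in the orchidectomized group, with a median difference of 0.63. The groups did not overlap for 4 of the 13, beside 16.3% of all probes. The 14 measured had a summed level of 40.5, 32.4 and 22.2 on orchidectomized 1, 2 and 3, 14.8 on sham 1 and 10.1 on sham 3. Their mean log2 value was -3.42, -3.93 and -4.53, then -4.08 and -5.01, in the same order. Astrocyte and microglia markers were higher for 6 of 8 each, with medians of 0.175 and 0.15. Lower were 7 of 8 oligodendrocyte and 11 of 12 glutamatergic neuron markers, with medians of -0.34 and -0.16, and 5 and 1 of them were without overlap. Markers of ependyma and motile cilia were lower for 5 of 6, with a median of -0.27. Endothelium markers were 4 higher and 4 lower, 3 and 1 of them without overlap. The part of these cell types in the Hspa5 difference was not tested.

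Promoter sequence is shown for Hspa5 and the other chaperone genes of the endoplasmic reticulum that hold its stress element. All 9 measured chaperone genes of that compartment, with or without the element, lay above the other arrays on sham 2. RefSeq promoters (assembly GRCr8) were given for 52 of the 65 genes, and the 250 bases before the start were searched on both strands with exact letters. The endoplasmic reticulum stress element, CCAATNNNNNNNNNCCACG, which Atf6 and its partner NF-Y bind, was searched for after the values had been seen. It occurred in 22 of 33469 promoters (0.0657%), 3 of them of chaperone genes, Hspa5, Hsp90b1 and Dnajc3. The stretch around each match is shown 5′ to 3′ on the gene's strand, with the 5 bases at each end of the element in capitals. For Hsp90b1 it is the nearer of 2 matches, and it runs in the reverse direction. The stretches are those of Hspa5 at chr3:38452953-38453011 (+), Hsp90b1 at chr7:23012327-23012385 (-) and Dnajc3 at chr15:102432514-102432572 (+).
Hspa5: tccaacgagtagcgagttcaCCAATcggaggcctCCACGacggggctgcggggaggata
Hsp90b1: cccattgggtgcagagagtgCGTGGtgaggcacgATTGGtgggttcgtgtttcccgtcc
Dnajc3: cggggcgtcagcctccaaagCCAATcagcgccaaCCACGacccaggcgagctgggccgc
The elements ended 25, 54 and 115 bases before the start, in that order. On sham 2 the 3 genes lay 1.56, 1.48 and 2.98 above the median of the other arrays, and without sham 2 they differed between the groups by 0.32, 0.09 and 0.18. All 9 genes of the compartment lay 0.29 to 2.98 above that median, and Dnajc25, which is not one of the 3, lay at 1.98. Of the unfolded protein response genes outside the chaperones, 14 had a promoter in the table, and 4 held the element, with shifts on sham 2 of 1.73 (Calr), 1.09 (Canx), 2.21 (Creld2) and -0.36 (Xbp1). A match describes letters in the sequence and is a description only.

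The cytosolic HSP110 proteins exchange nucleotide on HSP70. Hspa4 is one of them, and it read 3.54, 3.54 and 4.05 on orchidectomized 1, 2 and 3, 3.12 on sham 1, 3.31 on sham 3 and 3.69 on sham 2. The orchidectomized arrays were all above sham 1 and 3, with orchidectomized 3 the highest of the 6. The difference without sham 2, at 0.50 with a standard error of 0.21, was the largest positive difference among the chaperone genes in that fit (limma p 0.0545, adjusted p 0.988). It was 0.32 without orchidectomized 3 and 0.93 on slide 2, where that array was the orchidectomized one. Hspa4l, a relative of Hspa4, read 1.09, 1.12 and 1.51 in the orchidectomized group and 1.15 and 1.18 on sham 1 and 3, with sham 2 at 1.65. Hsph1, also called HSP105, read 0.23, 0.09 and -0.03 in the orchidectomized group and 0.09 and 0.20 on sham 1 and 3, with sham 2 at -0.14. Neither gene separated the groups, with differences of 0.08 and -0.05.

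Hspa8 encodes the constitutive cytosolic HSP70 that uncoats clathrin vesicles, and its brightest probe was saturated on all 6 arrays, so it gives no difference. A second probe was saturated on 5 arrays. The other 2 probes were not saturated, and they differed by 0.09 and 0.07 without sham 2. On sham 2 these probes lay 1.06 and 0.81 above the median of the other 5 arrays. The mitochondrial HSP70 gene Hspa9, whose product draws imported proteins through the inner membrane, read -0.28, -0.46 and -0.42 in the orchidectomized group. Sham 1 and 3 read -0.29 and -0.41 and overlapped with it completely, while sham 2 stood at 1.11. The difference without sham 2 was -0.03 with a standard error of 0.13.

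The remaining HSP70 genes did not separate the groups either. Hspa13, a microsomal relative known as STCH, read 1.58, 1.58 and 1.83 against 1.69 and 1.68 on sham 1 and 3, with sham 2 at 2.53. Hspa14, which works at the ribosome, read 1.40, 1.32 and 1.28 against 1.37 and 1.40, with sham 2 at 1.61. Both therefore had sham arrays inside the orchidectomized range or at its edge. Hspa2, best known from spermatogenesis but also present in brain, read -1.50, -1.48 and -0.72 against -1.29 and -1.10, with sham 2 at 0.52. Only orchidectomized 3 was above the sham arrays 1 and 3. Hspa12a, a distant HSP70 relative of neurons, read 2.03, 1.90 and 2.15 against 1.91 and 2.03. On sham 2 it read -1.28, and this one array gave Hspa12a the largest positive difference of the chaperone genes over 6 arrays, 1.14, against 0.06 without it. Hspa1l, the HSP70 of developing sperm, read -6.63, -7.02 and -7.55 against -6.88 and -7.09, was well above background on 2 of 3 orchidectomized arrays, and stood at -2.86 on sham 2.

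**Figure D2:**
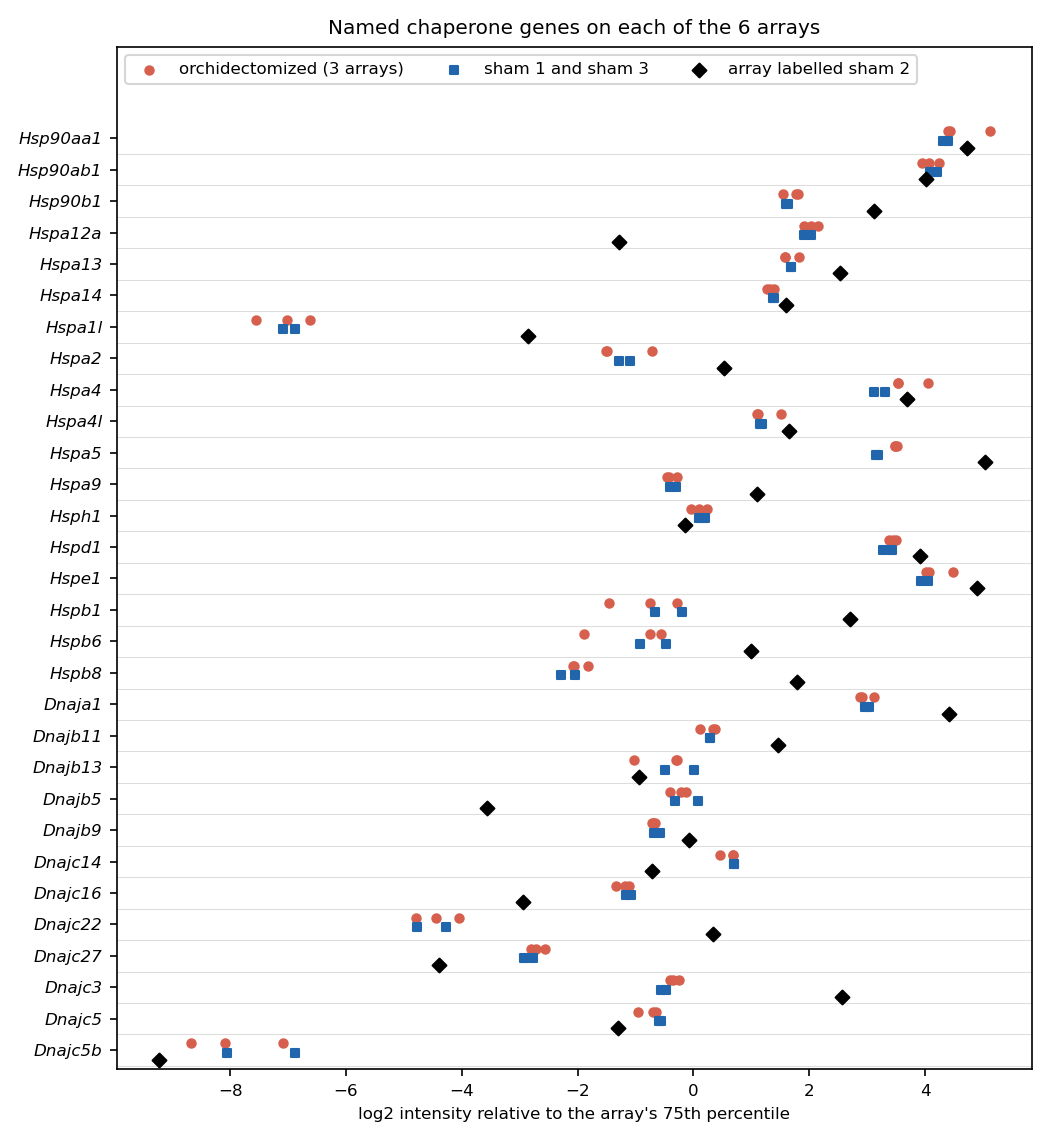
Log2 intensity relative to the array's 75th percentile for the chaperone genes described in full, 1 gene per row, on the 3 orchidectomized arrays (circles), sham 1 and 3 (squares) and the array labelled sham 2 (diamonds). Hspa8 is left out because its probe was saturated, and rows are not comparable with each other. Circles and squares lie close together in most rows, while the diamond stands apart, to the right at Dnajc22 (0.34) and Dnajc3 (2.57) and to the left at Hspa12a (-1.28) and Dnajb5 (-3.57).

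The mitochondrial chaperonins HSP60 (Hspd1) and HSP10 (Hspe1) form the folding chamber of the matrix and are transcribed from a shared promoter. Hspd1 read 3.39, 3.46 and 3.49 in the orchidectomized group, 3.28 and 3.42 on sham 1 and 3, and 3.91 on sham 2. Hspe1 read 4.02, 4.08 and 4.49, then 4.05 and 3.94, and 4.89 on sham 2. For both genes sham 2 was above the other 5 arrays, and the groups overlapped without it in these brightest probes. The differences were 0.10 with a standard error of 0.13 and 0.20 with a standard error of 0.18, the latter 0.05 without orchidectomized 3. Each of the 2 probes of Hspe1 had sham 2 highest and orchidectomized 3 next. The second probe differed by 0.16 without sham 2, and by 0.08 without orchidectomized 3 as well. Its groups did not overlap, by a narrow margin, 3.2767 on orchidectomized 2 against 3.2762 on sham 1.

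The heat shock element, which Hsf1 binds, was searched for as GAANNTTCNNGAA and TTCNNGAANNTTC, whose matches can overlap each other. It occurred in 222 of 33469 promoters (0.663%), 4 of them of chaperone genes, Hspa8, Hspd1, Hspe1 and Hsph1. They are shown, with the repeated units in capitals, because all 4 belong to the heat-inducible group. Of these, Hspd1 and Hspe1 lay above the other arrays on sham 2 and Hsph1 below them. The stretches lie at chr8:50080439-50080491 (+) for Hspa8, chr9:64084242-64084287 (-) for Hspd1, chr9:64084242-64084299 (+) for Hspe1 and chr12:10427312-10427364 (+) for Hsph1.
Hspa8: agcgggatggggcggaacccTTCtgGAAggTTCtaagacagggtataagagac
Hspd1: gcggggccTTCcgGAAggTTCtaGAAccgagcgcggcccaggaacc
Hspe1: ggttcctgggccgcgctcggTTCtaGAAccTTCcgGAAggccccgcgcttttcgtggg
Hsph1: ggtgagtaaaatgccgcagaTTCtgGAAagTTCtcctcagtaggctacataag
Hspd1 and Hspe1 share 1 stretch, read from opposite strands, and both hold 2 overlapping matches there. Hspa8 also has 2 matches, and the stretch shown for it is the nearer to the start. On the arrays Hspd1 and Hspe1 moved as follows. On sham 2 they lay 0.49 and 0.84 above the median of the other 5 arrays and Hsph1 lay at -0.23. Hspa8 was saturated in its brightest probe, and its 2 unsaturated probes lay at 1.06 and 0.81. The differences of Hspd1, Hspe1 and Hsph1 without sham 2 were 0.10, 0.20 and -0.05.

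Small heat shock proteins were measured by 7 genes, 6 of them lower in the orchidectomized group without sham 2, with a median difference of -0.17. This count depended on the scaling, with 3 lower and 4 higher under normexp and 4 lower and 3 higher under quantile normalization. None passed the test or separated the groups. Hspb1, the HSP27 of astrocytes, vessels and stressed cells, read -0.75, -0.29 and -1.46 on orchidectomized 1, 2 and 3, -0.20 on sham 1, -0.66 on sham 3 and 2.71 on sham 2. Hspb6, the HSP20 of smooth muscle and glia, read -0.55, -0.75 and -1.88, then -0.47 and -0.92, and 0.99 on sham 2. In both genes orchidectomized 3 was the lowest array and sham 2 the highest. The difference of Hspb1 was -0.40 with a standard error of 0.36 and became -0.09 without orchidectomized 3. That of Hspb6 was -0.37 with a standard error of 0.42 and became 0.04 without orchidectomized 3. Hspb8, known as HSP22, which works with the cochaperone Bag3 in selective autophagy, read -2.08, -2.06 and -1.82, then -2.05 and -2.29, and 1.79 on sham 2. Its difference was 0.18 without sham 2 and -1.13 with it. The other 4, Hspb2, Hspb3, Hspb7 and Hspb9, differed by -0.22 to -0.07.

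The 2 cofactors by name, Hspbp1, a nucleotide exchange factor of HSP70, and Hspbap1, which binds HSP27, differed by 0.14 and -0.08 and did not pass the test. J proteins made up 40 of the 65 genes, and 38 of them were tested without sham 2, 15 higher and 23 lower, with a median difference of -0.03, a split that turned to 23 higher and 15 lower with normexp and to 21 higher and 17 lower with the authors' values. Class A and class B J proteins resemble the bacterial DnaJ most closely. The 4 class A genes differed by -0.20 to 0.09. Dnaja1, the main cytosolic partner of HSP70, read 2.88, 2.91 and 3.13 in the orchidectomized group, 2.97 and 3.04 on sham 1 and 3, and 4.41 on sham 2. The sham arrays 1 and 3 lay inside the orchidectomized range.

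Among the 10 tested class B genes, 3 were higher and 7 lower, between -0.30 and 0.15, or 7 higher and 3 lower with normexp. Dnajb9 and Dnajb11 encode J proteins of the endoplasmic reticulum that work with BiP. Dnajb9 read -0.66, -0.70 and -0.71 against -0.58 and -0.69, with sham 2 at -0.07. Dnajb11 read 0.37, 0.33 and 0.12 against 0.29 and 0.28, with sham 2 at 1.46. Both were flat over the 5 arrays, in contrast to Hspa5, with differences of -0.06 and -0.01. Dnajb5, a brain and muscle form that has been linked to histone deacetylases, read -0.22, -0.13 and -0.41 against -0.31 and 0.08, with sham 2 at -3.57. Dnajb13, a part of the radial spoke of motile cilia, read -0.30, -0.28 and -1.03 against -0.49 and 0.01, with sham 2 at -0.93. The sham 2 value of Dnajb13 lay inside the range of the other 5 arrays, although the 6 measured markers of ependyma and motile cilia lay a median of 3.52 above the other 5 arrays there.

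Class C J proteins share little with DnaJ beyond the J domain and serve many separate tasks. Of 24 tested genes, 11 were higher and 13 lower, with a median of -0.02, or 14 higher and 10 lower with normexp and with the authors' values. Dnajc3, known as p58IPK, sits in the endoplasmic reticulum, where it delivers clients to BiP. It read -0.35, -0.25 and -0.41 in the orchidectomized group, -0.56 on sham 1, -0.47 on sham 3 and 2.57 on sham 2. As with Hspa5, every orchidectomized array was above sham 1 and 3 and sham 2 was above all of them. The difference was 0.18 with a standard error of 0.13 (limma p 0.209, adjusted p 0.988), and it was 0.14 to 0.23 under the alternatives tried without sham 2. With sham 2 in the fit it was -0.85, with a standard error of 0.88.

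Dnajc5 encodes cysteine string protein, which sits on synaptic vesicles and keeps the release machinery folded. It read -0.69, -0.64 and -0.96 in the orchidectomized group, -0.59 on sham 1, -0.55 on sham 3 and -1.30 on sham 2. The orchidectomized arrays were all below sham 1 and 3, orchidectomized 3 furthest, and sham 2 was the lowest of the 6. The difference was -0.19 with a standard error of 0.15 without sham 2, -0.09 without orchidectomized 3 as well, and 0.05 over all 6 arrays. Dnajc14 and Dnajc12 were likewise lower without overlap, by -0.09 and -0.22, the second named here because it completes that count. Dnajc14, which binds dopamine receptors on their way out of the endoplasmic reticulum, read 0.68, 0.68 and 0.46 against 0.70 and 0.71, with sham 2 at -0.72. Its other probes differed by -0.01, with overlap, and by -0.23, without overlap. Dnajc12, a chaperone of the aromatic amino acid hydroxylases, read -0.79, -0.81 and -1.30 against -0.72 and -0.79, with sham 2 at -1.07. In both genes orchidectomized 3 lay apart, and without it the differences were -0.02 and -0.05. Dnajc5b, a relative of Dnajc5 known from testis, had the largest negative difference, -0.49 with a standard error of 0.55. It was well above background on 1 orchidectomized array, on sham 1 and on sham 3 only. It was thus dim, and it entered the test only through the sham arrays, where its mean was higher.

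The spread among the 5 arrays was itself narrow for most chaperone genes. The range from the lowest to the highest of the 5 was a median of 0.36 log2 units, and 46 of 63 genes spanned less than 0.5. Over all tested probes, which are not limited to the brightest probe of a gene, the median range was 0.48. In 37 of the 63 genes orchidectomized 3 was the array farthest from the median of the 5, against 47.2% of all probes. Of the 17 genes that spanned 0.5 or more, orchidectomized 3 was farthest in 14, 1 of them the saturated Hspa8. The share among all probes of such a span was not computed, and picking genes by span favours the array that deviates most. Orchidectomized 3 was low for Hspb6, by -1.23 from the median of the other 4 arrays, and for Hspb1 (-0.98), the splicing-related J protein Dnajc17 (-0.82) and Dnajb13 (-0.74). It was high for Dnajb6, which keeps polyglutamine proteins from aggregating (0.89), Hsp90aa1 (0.73), Hspa2 (0.67) and Hspa4 (0.63). The differences of Hsp90aa1, Hspb1 and Hspb6 between the groups thus changed with that array, as given above, and the part of its lower intensity in them was not tested.

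**Figure D3:**
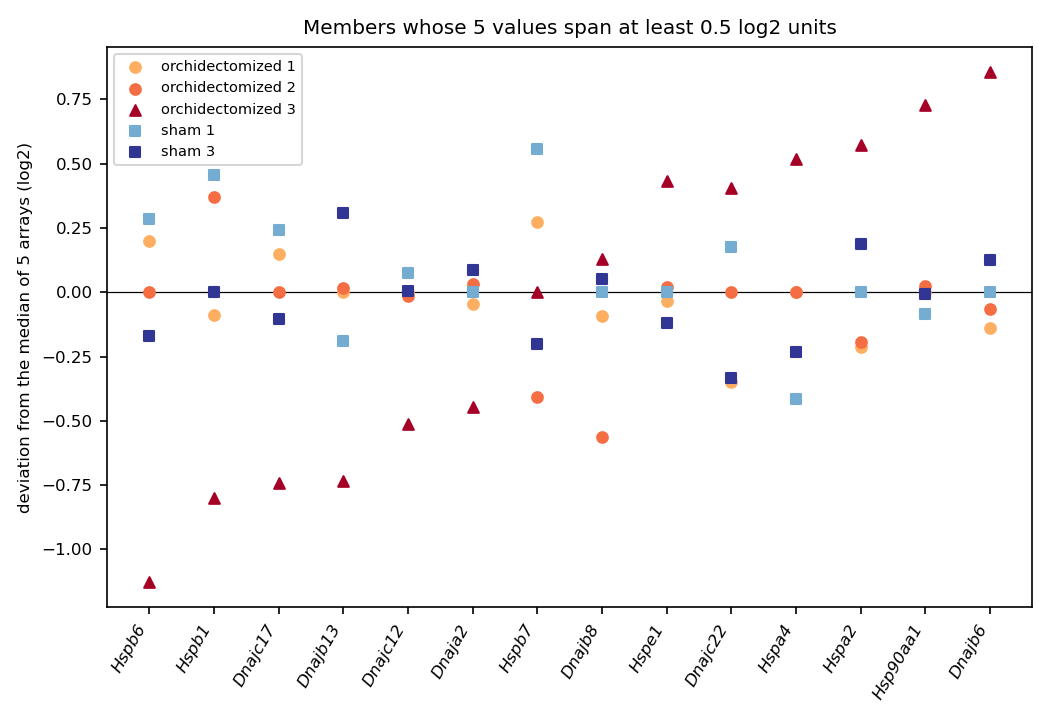
Deviation of each array from the median of the 5 arrays without sham 2, in log2 units, for the 14 chaperone genes that spanned at least 0.5 and were well above background on all 5 (the saturated Hspa8, which also spanned that much, is left out). Markers and colours give the array. Orchidectomized 3 (dark red triangles) lies at the lower edge for Hspb6, Hspb1, Dnajc17, Dnajb13, Dnajc12 and Dnaja2 and at the upper edge for Dnajb6, Hsp90aa1, Hspa2, Hspa4, Dnajc22 and Hspe1.

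Over all 6 arrays, limma again called 0 of 62 tested chaperone genes, beside 0.0% of 24634 probes, and 0 at an unadjusted p under 0.05, beside 0.731% of all probes. The smallest p was 0.181, for Hspb1 (adjusted p 0.774). Of the 62 genes, 20 were higher (1 of them the saturated Hspa8) and 42 lower, with a median of -0.08 against -0.02 over all probes. The number higher was 26 with normexp, 20 with quantile normalization, 15 with median scaling and 28 with the authors' values, and 36 within slide 2, to which the slide block reduces the fit. None had groups without overlap, beside 8.01% of all probes. The largest differences all came from genes on which sham 2 stood apart. Dnajc22 differed by -1.52 with a standard error of 1.40, Hspa1l by -1.45 with 1.19 and Hspb1 by -1.44 with 0.95. Hspa1l was well above background on 2 of 3 orchidectomized arrays and was tested only through the sham group, where its mean was higher. In the other direction Hspa12a differed by 1.14 with a standard error of 0.93, Dnajb5 by 1.01 with 0.99 and Dnajc27, a J protein fused to a Rab-like GTPase, by 0.67 with 0.47. Without sham 2 the same 6 genes differed by 0.10, -0.08, -0.40, 0.06, -0.14 and 0.15, in that order.

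The value of the array labelled sham 2 lay outside the range of the other 5 arrays for 48 of 62 genes, above it for 32 (40.2% of all probes) and below it for 16 (40.3%). It lay over 1 log2 unit above their median for 16 genes (18.8% of all probes) and over 1 unit below it for 5 (24.0%). The median shift was 0.29 for the chaperone genes and 0.01 for all probes. Median scaling gave 0.57 and 0.27, and the other scalings 0.20 to 0.33 and -0.04 to 0.14. The correlation of sham 2 with the other arrays over the 62 chaperone genes was 0.851 to 0.868, against 0.989 to 0.998 among the other 5. One array has no replicate, so these are descriptions of that array and carry no test.

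The shifts on sham 2 are given by the compartment or use of the protein, from lists made with earlier results known. All 9 measured genes of the endoplasmic reticulum were above all other 5 arrays under each scaling tried. They lay 0.29 (Dnajc10) to 2.98 (Dnajc3) above the median of those arrays, with a median of 1.17 and 5 over 1 unit. Between these lay Dnajc25 at 1.98, Hspa5 at 1.56, Hsp90b1 at 1.48, Dnajb11 at 1.17, Dnajb12 at 0.94, Hspa13 at 0.85 and Dnajb9 at 0.62. Over the other 5 arrays the same 9 genes were narrow, none spanning 0.5. Without sham 2, 4 of the 9 were higher and 5 lower in the orchidectomized group, with a median of -0.01, or 8 higher and 1 lower with normexp and 6 higher and 3 lower with the authors' values. With sham 2 in the fit all 9 were lower, with a median of -0.36. Of the 9 mitochondrial genes, 8 were shifted upward on sham 2 (7 with normexp and with the authors' values), with a median of 0.49, led by Dnajc15, which is tied to the import motor (1.61), and Hspa9 (1.52). Only Dnajc30 was below, at -0.42.

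Without the saturated Hspa8, the 9 measured heat-inducible genes had a median shift of 0.50, with 8 above and 1 below (9 above with median scaling, 7 with quantile normalization), but were uneven. Hspb8 lay 3.84 above the median of the other 5, Hspb1 3.36 and Dnaja1 1.44, whereas Hsp90aa1 (0.33) and Hspa4 (0.16) lay inside the range of the others and Hsph1 (-0.23) below it. Of the vesicle and synapse group, Dnajc5 was shifted by -0.66, Dnajb6 by -0.42 and Dnajb2, a neuronal J protein that sorts clients for the proteasome, by -0.22, while the 2 unsaturated probes of Hspa8 lay above 0, as given before. With median scaling, 1 of these 3 J protein genes lay above 0. The 5 germ cell genes tested ran from -0.97 (Dnajb8) to 4.16 (Hspa1l), with a median of -0.63. The largest shift of any tested chaperone gene was 4.79, for Dnajc22, which has been tied to clathrin-mediated uptake. It read -4.79, -4.45 and -4.04 in the orchidectomized group, -4.27 and -4.78 on sham 1 and 3, and 0.34 on sham 2.

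Below the other arrays on sham 2 lay Dnajb5 (-3.35) and Hspa12a (-3.31), then Dnajc16 (-1.78), Dnajc27 (-1.63) and Dnajc14 (-1.40). Dnajc16 read -1.11, -1.17 and -1.34 in the orchidectomized group and -1.17 and -1.07 on sham 1 and 3, with sham 2 at -2.95. Dnajc27 read -2.80, -2.72 and -2.56, then -2.76 and -2.93, with sham 2 at -4.39. Both probes of Hspa12a gave the same direction, the second at -3.65. The other probes of Dnajc14 were also below, at -0.46 and -0.32. These shifts moved with the marker lists, choroid plexus by a median of 9.60 and glutamatergic neurons by -7.58, and the part of cell types in them was not tested.

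**Figure D4:**
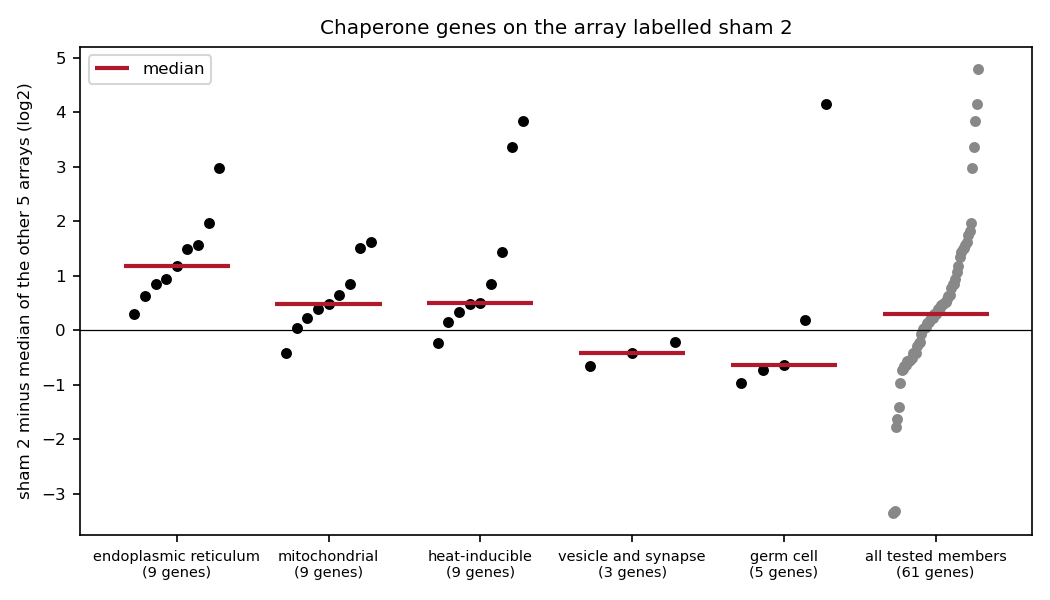
Value on the array labelled sham 2 minus the median of the other 5 arrays, in log2 units, for chaperone genes grouped by place or use, 1 point per gene, with the median of each group as a bar. Horizontal position within a group only spreads the points. All 9 genes of the endoplasmic reticulum lie above 0 (median 1.17), the 3 plotted vesicle and synapse genes below 0 on this scale (median -0.42, with 1 of 3 above 0 under median scaling), and all 61 plotted genes run from -3.35 to 4.79. Hspa8 is left out because its probe was saturated.

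Among partner genes outside the list, 69 of 78 were measured and all 69 tested without sham 2. Limma called 0 of them, 40 were higher and 29 lower, and 2 had an unadjusted p under 0.05, beside 2.71% of all probes. The groups did not overlap for 14 of the 69, beside 16.3% of all probes. Those 2 were lower and belong to the unfolded protein response. Trib3, a pseudokinase induced late in that response, read -6.07, -5.95 and -5.95 in the orchidectomized group, -5.52 on sham 1, -5.06 on sham 3 and -4.86 on sham 2. Ern1, which encodes the stress sensor IRE1, read -5.35, -5.66 and -5.66, then -4.95 and -5.27, with -5.20 on sham 2. The orchidectomized arrays were below sham 1 and 3 in both. The differences were -0.70 with a standard error of 0.18 for Trib3 and -0.44 with 0.18 for Ern1, or -0.47 and -0.60 without sham 3 and -0.93 and -0.28 without sham 1. The adjusted p was 0.988 or above for all 69 genes.

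The 18 measured genes of the unfolded protein response split without sham 2 into 12 higher and 6 lower under each scaling tried, with a median of 0.14. With sham 2 in the fit, 4 were higher and 14 lower, with a median of -0.30. Without sham 2, those higher without overlap were Calr, a lectin chaperone (0.23), Creld2 (0.22), the disulfide isomerase Pdia6 (0.17) and the transcription factor Ddit3 (0.19). The sensors Ern1 and Eif2ak3 (-0.33), together with Herpud1 (-0.30), a degradation adaptor, and Trib3, were lower without overlap. Atf6, also a sensor, was higher by 0.31 with overlap, and by 0.04 without orchidectomized 3. Without orchidectomized 3 the differences were -0.15 for Eif2ak3, -0.17 for Herpud1 and 0.11 for Pdia6, and Ddit3 was at 0.05 without sham 3. On sham 2 the list was shifted by a median of 1.09, with 10 of 18 genes over 1 unit, among them Sdf2l1 at 3.34 and Herpud1 at 2.61. Of the HSP70 partners, the BiP exchange factors Hyou1 and Sil1 and the mitochondrial Grpel1 were higher without overlap, by 0.13, 0.06 and 0.07 (0.08, 0.06 and 0.03 without orchidectomized 3). On sham 2 Sil1 lay 2.38 above the median of the other arrays and Hyou1 0.29.

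The HSP90 cochaperones were 7 higher and 7 lower, with a median of -0.01 (9 higher with the authors' values, 6 with quantile normalization). Fkbp4 and Fkbp5, immunophilins that bind steroid receptor complexes, differed by -0.11 and -0.23, and neither separated the groups. The cytosolic chaperonin and prefoldin genes were 9 higher and 3 lower, with a median of 0.06 (7 to 10 higher over the scalings), and Pfdn2 (0.22) and Pfdn6 (0.22) were without overlap, with differences of 0.05 and 0.11 without orchidectomized 3. Of the heat shock factor genes, Hsf1, the main factor of the heat response, differed by 0.09 and Hsf4 by -0.18, the latter without overlap. On sham 2 Bag3, the partner of Hspb8, was shifted by -2.47, the opposite direction to Hspb8 itself.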

How the data were processed

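Per the file headers, the 1-colour arrays were read with Agilent Feature Extraction 10.5.1.1. Its processed signal is an intensity from which the background was subtracted and spatial trends were removed. The saturation, outlier and above-background flags are other deposited columns, used as the scanner software set them. The table deposited by the authors gives log2 values, which differ from the logged processed signals by 1 constant per array, whose origin is not given in the sources used here, and it served as an alternative.

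Of 44254 spots per array, 1377 control spots and outlier-flagged spots were left out. The remaining spots of a probe were averaged on the log2 scale, and the 75th percentile of the array was subtracted. A probe took the above-background or saturation flag that at least 50% of its spots carried. Accessions of RefSeq were matched without versions to a GRCr8 gene table, which named 18004 probes and left 12363 unnamed. The headers name rn4, so no array coordinates are given.

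Probes that were well above background on every array of one group or the other were fitted with lmFit and eBayes (limma 3.58.1, R 4.3.3), and two-sided p-values were adjusted over all tested probes by the Benjamini-Hochberg method. The fit was also run on simulated data with independent noise and added changes larger than any chaperone gene showed without sham 2. That setting differs from these arrays, so it does not show how the fit performs on them. P-values measure the spread between these samples only. Group lists, marker lists and the genes given in full were written down as a rule by family, by an unadjusted p under 0.05, by the 3 largest differences per direction and by the 5 largest shifts per direction on sham 2. Genes beyond the rule were named after their values were seen. The members and lists were chosen with earlier results of these data known. Protein sequences were not used here.

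Orchidectomized 1 and 2 shared slide 1, and orchidectomized 3 and sham 1 shared slide 2. Sham 2 (slide 3) and sham 3 (slide 4) were alone on theirs. All orchidectomized arrays and sham 1 were scanned on day 1, sham 2 and 3 on day 2. Samples of the same replicate number did not deviate together (correlations 0.03, -0.02 and -0.02), so the numbers were not taken as pairs. Alternatives were normexp (offset 50, on median spot signals because the files hold no mean signals), quantile and median scaling, the authors' values, other brightness filters, array weights, the mean of a gene's probes, the replicate number, the slide or the day of the scan as a block, and leaving out each array.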

Additional observations from a re-analysis of the deposited data

How the results depend on the processing

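All differences are orchidectomized minus sham in log2 units. No chaperone gene was called under any alternative, with or without sham 2. Over 6 arrays, 0 probes were called, against 1 with quantile normalization, 1 with array weights (sham 2 weighted 0.0295) and 0 to 0 on leaving out each array. Without sham 2, 0 probes were called, against 2 with quantile normalization, 1 with median scaling, 18 with the authors' values, 6 with array weights, 10 with the scan day as a block, and 0 to 251 on leaving out each array (22 without sham 1, 251 without sham 3). The last 2 fits rest on 1 sham array, assumed to vary like the other group. The median over the chaperone genes was -0.08 over 6 arrays (-0.15 to -0.03 on leaving out each array, but 0.07 with the slide block and 0.003 with the scan day block) and -0.03 without sham 2 (-0.02 to 0.00 on leaving out each array, and 0.065 within slide 2, as the slide block reduces to that slide). The replicate block left it at -0.0019 and called 0 chaperone genes, and the shared numbers are not taken as pairs.

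These directions turned over 6 arrays. Array weights gave -0.026 for Dnajb5 and 0.090 for Hspa1l, and the slide block -0.096 for Dnajb5 and 0.23 for Dnajc22. Leaving out each array gave -0.14 to 1.69 for Dnajb5 and -2.46 to 0.098 for Dnajc22. Without sham 2, normexp turned Dnajb11 (0.0016), Dnajb9 (0.014), Dnajc5b (0.27), Hspa13 (0.020) and Hspa1l (0.34), and quantile normalization Dnajc5b (0.042) and Hspa1l (0.36). The authors' values turned Dnaja1 (0.019), Dnajb11 (0.041), Hsp90ab1 (0.0018), Hspa13 (0.033), Hspa14 (0.0019), Hspa2 (0.013), Hspa9 (0.021) and Hsph1 (0.0044). Array weights turned Dnajb11 (0.054), Dnajc22 (-0.068), Hsp90ab1 (0.0082), Hspa1l (0.13), Hspa4l (-0.037) and Hsph1 (0.0063), and the mean of all probes Hsp90ab1 (0.077). The replicate block turned Hspa13 (0.021), Hspa2 (0.085) and Hspa9 (0.0026), and the slide block Dnaja1 (0.16), Hsp90b1 (-0.051), Hspa13 (0.14) and Hspa2 (0.57). The scan day block, which leaves out sham 3, turned Dnaja1 (0.0004), Dnajb5 (0.059), Dnajc22 (-0.16), Hspa2 (0.055) and Hsph1 (0.0056).

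Leaving out each of the 5 arrays gave -0.11 to 0.012 for Dnaja1, -0.059 to 0.065 for Dnajb11, -0.33 to 0.059 for Dnajb5, -0.16 to 0.35 for Dnajc22, -1.08 to 0.10 for Dnajc5b, -0.13 to 0.018 for Hsp90ab1 and -0.0034 to 0.12 for Hspa12a. It gave -0.10 to 0.021 for Hspa13, -0.30 to 0.17 for Hspa1l, -0.30 to 0.094 for Hspa2, -0.057 to 0.15 for Hspa4l, -0.091 to 0.025 for Hspa9, -0.62 to 0.043 for Hspb6 and -0.12 to 0.015 for Hsph1. None of these differences was called, and the cause of the turns was not tested.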
